A study of Homo sapiens with 6 samples.

Results

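The genes described here are the machinery of RNA polymerase I (Pol I), the enzyme that transcribes only the ribosomal DNA. The set holds 10 of the 57905 genes in the deposited table, found by their gene symbols. It was selected on the raw counts of this experiment, since RRN3 was known to differ between the groups when its partners were listed. The difference between INO80 siRNA and control siRNA is therefore given for these 10 genes as a description, and no p-value is given for them. HK-2, an immortalized line of human renal proximal tubular cells, received a pool of siRNAs that target INO80, the ATPase of a chromatin remodeling complex, or a non-targeting control pool. Both groups were transfected with the reagent RNAiMAX, and RNA was collected after 48 h. Each group has 3 libraries, the labels call the control cells wild type and the others knockdown, and nothing in the labels says that the libraries came from separate cultures. The p-values below therefore measure the spread between these libraries, which may be technical.

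Pol I copies the 47S precursor from which the 18S, 5.8S and 28S ribosomal RNAs are cut, and this step sets the rate at which a growing cell can make ribosomes. UBTF binds along the ribosomal DNA, and SL1, a complex of TBP with TAF1A, TAF1B, TAF1C and TAF1D, marks the promoter. RRN3, also known as TIF-IA, joins the polymerase and carries it to SL1, and growth factor and nutrient signals are known to act on initiation through RRN3.

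The reads counted on genes numbered 16829273 in the shallowest library and 23784599 in the deepest. INO80 itself was at 46.3, 49.3 and 54.0 CPM (the count relative to the TMM-scaled library size) in the 3 control libraries and at 13.8, 12.1 and 14.2 CPM under INO80 siRNA, a log2 fold change of -1.90 (adjusted p = 0.000161, edgeR). Among 11 markers of the proximal tubule only GGT1 and PAX8 reached 1 FPKM (the count relative to exonic length and to the library's total) in every library. LRP2, SLC22A6 and HNF4A were at 0 FPKM in every library. Of 5 general epithelial markers 4 were present, whereas 4 of 5 markers of the loop, distal tubule and collecting duct were at 0. The summed FPKM of the proximal tubule markers was 77.2 to 80.7 under control siRNA and 77.0 to 80.9 under INO80 siRNA. The deviations of replicate 1 from its group mean correlated at 0.581 across genes between the groups, the highest value of any pair across the groups.

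RRN3 has close copies on chromosome 16, and the sequences below show how close. From GENCODE v44 transcripts, matched by gene ID and for RRN3P3 by symbol, bases 1167 to 1226 of the RRN3 transcript, all in its coding sequence, are set beside the same stretch of the 3 pseudogenes RRN3P1, RRN3P2 and RRN3P3. The RRN3P3 transcript printed belongs to another gene ID than the RRN3P3 counted below. Capitals mark the positions where at least 1 copy differs from RRN3. The stretch of 60 bases with the most such positions among those that all 3 copies cover was taken.
RRN3: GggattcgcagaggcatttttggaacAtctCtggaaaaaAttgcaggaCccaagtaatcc
RRN3P1: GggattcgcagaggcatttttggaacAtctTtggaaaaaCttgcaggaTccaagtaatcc
RRN3P2: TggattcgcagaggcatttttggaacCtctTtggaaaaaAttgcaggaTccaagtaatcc
RRN3P3: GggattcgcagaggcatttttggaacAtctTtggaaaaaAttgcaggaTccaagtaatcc
Counted from the 5′ end of the RRN3 transcript, C1197T and C1215T were shared by all 3 copies. RRN3P3 differed from RRN3 at these 2 positions only, RRN3P1 also by A1206C, and RRN3P2 also by G1167T and A1193C. In blastn alignments RRN3P1, RRN3P2 and RRN3P3 were between 97.1% and 99.2% identical to RRN3, and the last base of RRN3 aligned to any of them was 1833. The 1873 bases after it, of 3706 in all, aligned to none of the GENCODE v44 transcripts of these 3 copies. The counted genes RRN3P1, RRN3P2 and RRN3P3 have exonic lengths of 3907, 2475 and 3269 bases. The alignments reached only bases 1284, 1454 and 1291 of their transcripts. The copies in the genome were not compared, so how much of RRN3 shares reads with them is not known. Of the 3557 stretches of 150 bases in RRN3, the length of the sequencing reads, 346 (9.73%) were found without a difference in a pseudogene transcript.

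RRN3 was the member that differed most between the groups. RRN3 (ENSG00000085721, chromosome 16 from 15153879 to 15188174 on the minus strand, GRCh37) was at 54.7, 51.9 and 52.2 CPM in control replicates 1, 2 and 3. It was at 32.9, 30.7 and 29.4 CPM in INO80 siRNA replicates 1, 2 and 3. The groups did not overlap, and every INO80 siRNA library lay far below the lowest control library. The means were 53.0 ± 1.54 and 31.0 ± 1.77 CPM (SD, n = 3 each), a ratio of 0.586. The log2 fold change was -0.77 (standard error 0.07). Within the replicate pairs the log2 ratio was -0.73, -0.76 and -0.83. Only 188 of the 15343 genes tested (1.23%) had a lower log2 fold change. The raw counts were 897, 1060 and 1010 under control siRNA and 662, 741 and 713 under INO80 siRNA, so the count fell although the INO80 siRNA libraries were deeper. In RNA from whole cultures, fewer cells with the transcript and less transcript per cell cannot be told apart.

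The copies of RRN3 did not follow it. RRN3P3 (ENSG00000257122), the most counted copy, had 158, 153 and 161 reads in the control libraries and 194, 198 and 229 under INO80 siRNA. In CPM its groups overlapped, at 9.64, 7.49 and 8.33 against 9.65, 8.199 and 9.45 (log2 fold change 0.10, standard error 0.139, adjusted p = 0.774, edgeR). RRN3P1 (ENSG00000248124) was at 2.93, 2.40 and 3.26 CPM against 2.54, 2.20 and 3.14 CPM (log2 fold change -0.12, standard error 0.219, adjusted p = 0.836, edgeR). RRN3P2 (ENSG00000103472) had between 2 and 7 reads in each library and was under the count filter. RRN3P4, an older copy on chromosome 2 that the table lists under another name, had 0 reads in every library. Of the reads counted on RRN3 or RRN3P1, RRN3P2 and RRN3P3, the share on RRN3 was 81.1%, 83.8% and 81.5% in the control libraries and 72.6%, 74.2% and 69.9% under INO80 siRNA. Because reads that match several copies can be dropped or placed on the wrong one, RRN3 was also fitted with these 3 copies summed into it. The log2 fold change was then -0.59 (standard error 0.0672). The 3 copies together were at 12.75, 10.03 and 11.85 CPM in the control libraries against 12.43, 10.68 and 12.67 under INO80 siRNA. With RRN3 added the values were 67.45, 61.92 and 64.09 against 45.36, 41.37 and 42.1 CPM. Whether reads were placed on the wrong copy was not tested. The span of RRN3 also overlaps PDXDC1 on the opposite strand. PDXDC1 was at 92.8, 104 and 105 CPM in the control libraries against 99.4, 106 and 99.2 CPM in the others, with overlapping groups (log2 fold change 0.01, adjusted p = 0.952, edgeR). NTAN1, which lies next to RRN3 on the same strand and was looked at after its values were seen, had a log2 fold change of 0.06 (adjusted p = 0.755, edgeR). None of the 5 tested genes within 100 kb of RRN3 had an adjusted p under 0.05 (edgeR).

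**Figure D1:**
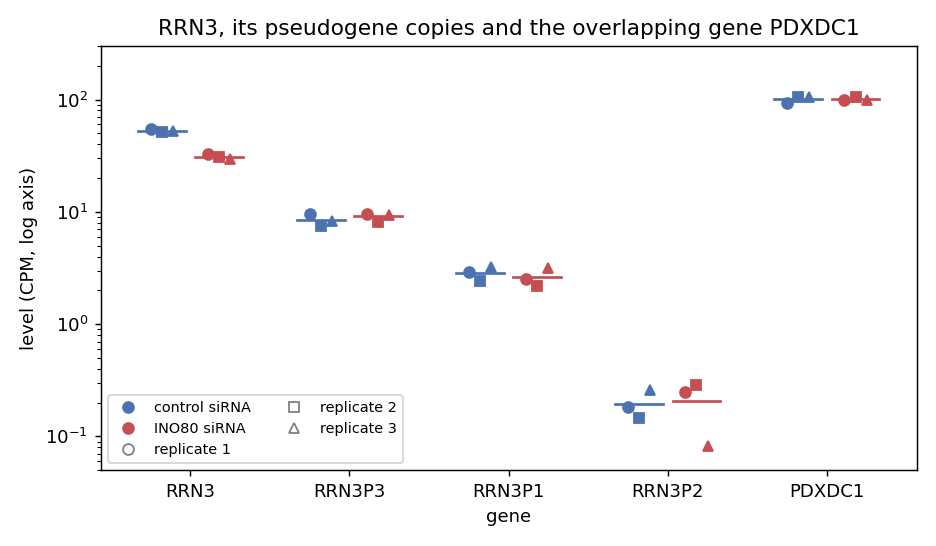
Level of RRN3, its pseudogenes RRN3P3, RRN3P1 and RRN3P2 and the overlapping gene PDXDC1 in each library, in CPM on a log axis; points are libraries, shapes are replicate numbers and lines are group means (n = 3 each). RRN3 separates into 29.4 to 32.9 CPM under INO80 siRNA and 51.9 to 54.7 CPM under control siRNA, whereas the groups overlap for the other 4 genes.

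UBTF (ENSG00000108312, chromosome 17 from 42282401 to 42298994), which bends and occupies the ribosomal DNA, was at 106, 124 and 125 CPM under control siRNA. Under INO80 siRNA it was at 127, 133 and 129 CPM. The groups did not overlap, but the gap between them was small beside the spread of the control libraries, of which replicate 1 was the lowest. The log2 fold change was 0.13 (standard error 0.0733), and 0.07 without replicate 1 of both groups.

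Of the SL1 subunits, TAF1C stood apart from the other three. TAF1C (ENSG00000103168, chromosome 16 from 84211458 to 84220669), the largest TAF of the complex, was at 56.6, 53.7 and 65.5 CPM under control siRNA and at 84.4, 68.8 and 79.6 CPM under INO80 siRNA. The groups did not overlap, with the highest control library close to the lowest INO80 siRNA library. The means were 58.6 ± 6.17 and 77.6 ± 7.99 CPM (SD, n = 3 each), the log2 fold change was 0.40 (standard error 0.0999), and 624 of the tested genes (4.07%) had a higher one. Its pair ratios were 0.58, 0.36 and 0.28 on the log2 scale, and without replicate 1 of both groups its log2 fold change was 0.31. RRN3 and TAF1C, the members with the largest differences, thus differed in opposite directions.
TAF1A (ENSG00000143498, chromosome 1 from 222731244 to 222763275) was at 19.3, 19.3 and 17.3 CPM under control siRNA and at 21.4, 19.3 and 19.2 CPM under INO80 siRNA. TAF1B (ENSG00000115750, chromosome 2 from 9983483 to 10074545), a relative of the Pol II factor TFIIB, was at 30.4, 31.5 and 37.0 CPM against 33.4, 38.0 and 36.9 CPM. TAF1D (ENSG00000166012, chromosome 11 from 93463114 to 93517557) was at 75.2, 60.5 and 68.1 CPM against 81.3, 64.2 and 76.1 CPM. In all 3 of these genes the groups overlapped, and the log2 fold changes were 0.10, 0.13 and 0.12 with standard errors of 0.093, 0.0953 and 0.107. TAF1D was lowest in replicate 2 of both groups. Its introns host small nucleolar RNAs that guide the modification of ribosomal RNA, of which SNORD6 had between 2 and 6 reads in each library. SNORD5, SNORA1, SNORA8, SNORA18, SNORA25, SNORA32 and SNORA40, like the microRNA gene MIR1304, had none. Since mRNA was selected by its poly-A tail, these counts do not measure the levels of small RNAs. TAF1D also overlaps MED17, KIAA1731 and C11orf54 on the opposite strand, whose log2 fold changes lay between 0.04 and 0.09 (adjusted p between 0.829 and 0.851, edgeR).

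The 4 subunits of the polymerase itself differed little. POLR1A (ENSG00000068654, chromosome 2 from 86247339 to 86333278), the largest subunit, which forms the active site with POLR1B, was at 106, 115 and 114 CPM under control siRNA and at 117, 113 and 112 CPM under INO80 siRNA. POLR1B (ENSG00000125630, chromosome 2 from 113299492 to 113334635) was at 44.7, 46.0 and 42.7 CPM against 47.8, 48.8 and 46.4 CPM, and its groups did not overlap. Its group means were 44.5 and 47.7 CPM, and its log2 fold change was 0.10 (standard error 0.0635).
POLR1C (ENSG00000171453, chromosome 6 from 43477440 to 43497323), which Pol I shares with Pol III, was at 39.8, 35.4 and 37.9 CPM against 39.5, 38.4 and 39.4 CPM. POLR1E (ENSG00000137054, chromosome 9 from 37485932 to 37503694), part of a heterodimer on the surface of the enzyme, was at 19.1, 23.0 and 23.1 CPM against 21.5, 23.5 and 22.4 CPM. For POLR1A, POLR1C and POLR1E the groups overlapped, and the log2 fold changes were 0.03, 0.05 and 0.05 with standard errors of 0.0569, 0.0701 and 0.0985. Without replicate 1 of both groups these 3 log2 fold changes were -0.02, 0.08 and -0.01. POLR1C overlaps XPO5 and YIPF3 on the opposite strand, whose log2 fold changes were 0.01 and 0.11 (adjusted p = 0.965 and 0.449, edgeR). The other genes that overlap a member on the opposite strand had few reads. RP11-378J18.3, beside TAF1A, had 24, 15 and 24 reads in the control libraries against 29, 51 and 36 (log2 fold change 0.57, adjusted p = 0.436, edgeR). RP5-882C2.2 and CTB-175E5.7 at UBTF, DNAAF1 at TAF1C, LRRC73 and RP3-337H4.9 at POLR1C and RP11-405L18.4 at POLR1E had at most 20 reads in any library. POLR1A, POLR1B and TAF1B overlap no other gene of the table.

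**Figure D2:**
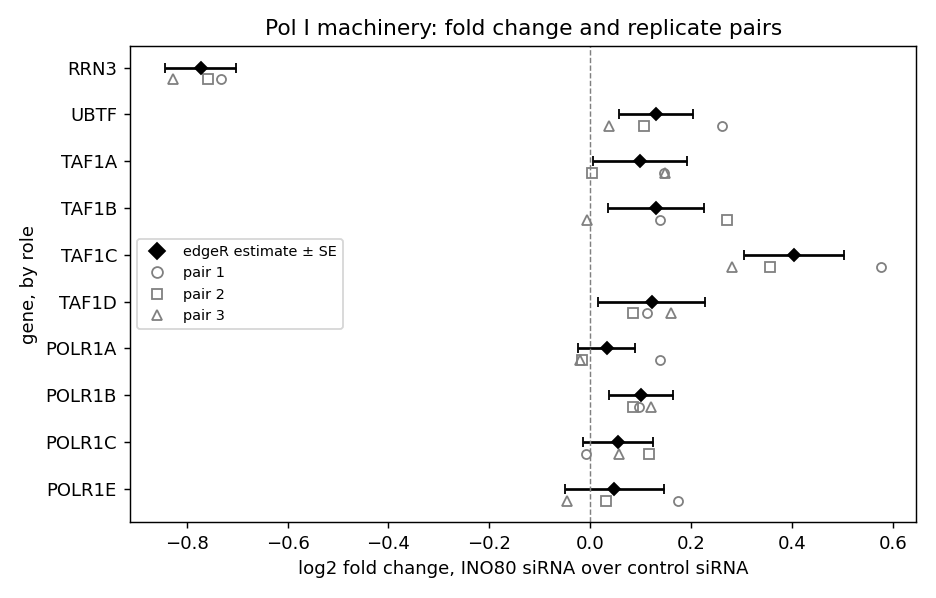
Log2 fold change of each member, INO80 siRNA over control siRNA; black diamonds are edgeR estimates with their standard errors and open symbols are the log2 ratios of the 3 replicate pairs. RRN3 lies at -0.77 with all 3 pairs between -0.83 and -0.73, TAF1C at 0.40, and the other 8 genes between 0.03 and 0.13.

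All 10 members passed the filter on low counts, with between 313 and 3217 reads in each library. At the limit used for all genes, an adjusted p of 0.05, edgeR called 268 of the 15343 genes tested (1.75%), 228 lower (1.49%) and 40 higher (0.261%). The count among the members was 1 of 10, RRN3, which the choice of the set had fixed. With the replicate number as a block, 3 members were called, RRN3 lower and TAF1C and UBTF higher. The block called 24.8% of all genes, 13.4% lower and 11.4% higher, so that 3 of 10 was close to the background. Of the 10 members, 3 (UBTF, TAF1C and POLR1B) had CPM values above the control range in every INO80 siRNA library and 1 (RRN3) had values below it, and the ranges of the other 6 overlapped. Among all tested genes 11.3% lay above the control range and 11.5% below. The log2 fold change was above 0 in 9 of the 10 members and in 51.5% of all tested genes, and its median was 0.10 over the members and 0.01 over all tested genes. Nothing is read from these counts, because RRN3 was known beforehand.

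Levels per length place the members beside each other. The length in the deposited FPKM is the exonic length of the whole gene, which can exceed that of a transcript. For TAF1D it is 8420 bases against 1632 in the GENCODE v44 transcript, and for POLR1C 2867 against 1275. The order below holds for the exonic length, and an order by transcript length was not computed. Under control siRNA, in the deposited FPKM, UBTF was the highest at 16.9 ± 1.80 (SD, n = 3), followed by POLR1C at 13.1 ± 0.576 and RRN3 at 12.7 ± 0.132. The 3 FPKM values of POLR1C and RRN3 overlapped, whereas those of UBTF lay above both. TAF1C came next at 10.5 ± 1.18 FPKM, without overlap with its neighbours in the order. POLR1E, POLR1A, TAF1B, TAF1D and POLR1B followed with mean FPKM of 8.62, 8.22, 8.08, 8.02 and 7.10, and each overlapped the next. TAF1A was the lowest at 6.41 ± 0.356 FPKM. The mean FPKM of the 10 members thus ran from 6.41 to 16.9. Other genes of the machinery lay outside this range, with ZNRD1 at 2.06 ± 0.371 and POLR2E, a subunit common to the 3 polymerases, at 44.1 ± 1.92 FPKM (SD, n = 3 each).
Among the control libraries RRN3 also had the smallest SD for its mean in FPKM, at 1.04%, against 4.0% to 12.2% for the other members. In TMM-scaled CPM the same libraries gave 53.0 ± 1.54, a larger share of the mean. These are 3 values per gene, and whether RRN3 varies less than the other members was not tested. In the control libraries RRN3 ranked 3, 2 and 3 among the 10 members in FPKM, and its level was 1.67, 1.47 and 1.38 times the median of the other 9. Under INO80 siRNA it ranked 8, 9 and 9, at 0.912, 0.789 and 0.783 times that median. TAF1C moved the other way in the order of mean FPKM, from rank 4 to rank 2.

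**Figure D3:**
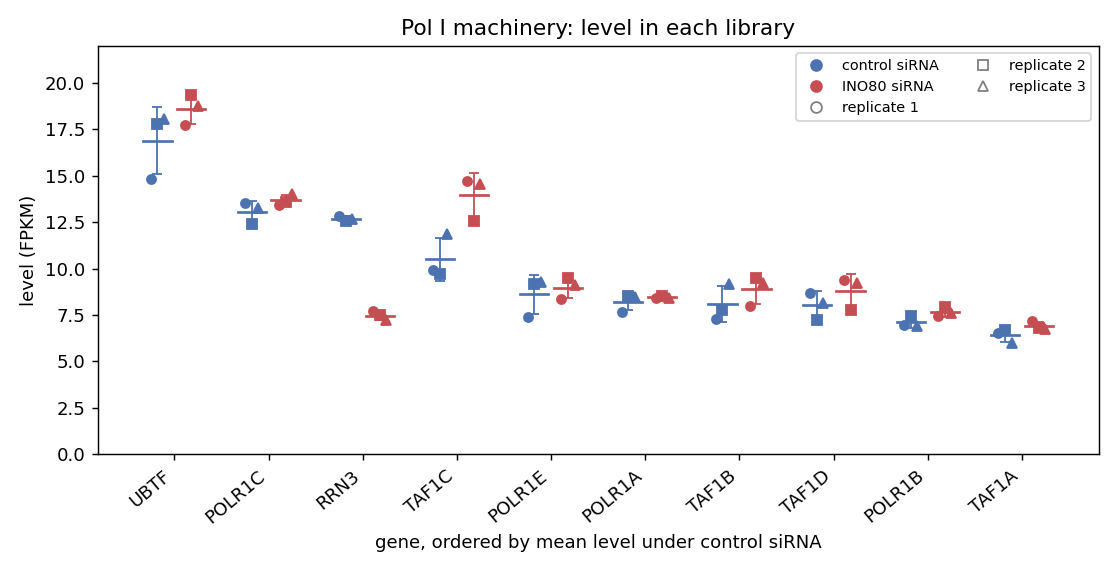
FPKM of the 10 members in each library, ordered by mean level under control siRNA; points are libraries, shapes are replicate numbers, and lines and bars are means and SD (n = 3 each). RRN3 drops from 12.7 to 7.47 FPKM on average and TAF1C goes from 10.5 to 13.96 FPKM, while TAF1A is lowest in both groups.

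The ribosomal RNA that Pol I makes was counted only in part, since mRNA was selected by its poly-A tail and mature ribosomal RNA has none. The table holds 10 genes annotated as 18S, 28S or 5.8S ribosomal RNA, of which 4 had reads. RNA28S5 (ENSG00000266658, contig GL000220.1 from 113348 to 118417) had 7302, 12046 and 11256 reads in the control libraries and 8173, 19274 and 15404 under INO80 siRNA. In CPM this was 445, 590 and 582 against 407, 798 and 636, and replicate 1 was the lowest of both groups. The groups overlapped, and the difference on the log2 scale was 0.19 (standard error 0.217, adjusted p = 0.732, edgeR).
RNA18S5 (ENSG00000272060) was at 13.3, 18.6 and 17.3 CPM against 10.6, 24.2 and 20.3 CPM (log2 fold change 0.17, standard error 0.268, adjusted p = 0.817, edgeR). Without replicate 1 of both groups the log2 fold changes of RNA28S5 and RNA18S5 were 0.29 and 0.30. Ribosomal RNA took between 0.0406% and 0.0836% of the counted reads. These reads are what remained after selection, and do not measure the rate of Pol I transcription.

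Genes around Pol I were listed by role. Of 12 other Pol I genes (POLR1D, TWISTNB, CD3EAP, ZNRD1, the subunits shared with Pol II, TBP, TTF1 and PTRF) none had an adjusted p under 0.05 in edgeR, while 4 had an unadjusted p under 0.05, DESeq2 called 1 and the block called 5, 3 lower and 2 higher. TWISTNB, the subunit through which the polymerase contacts RRN3, had a mean of 42.6 ± 0.979 CPM in the control libraries against 34.5 ± 0.613 CPM after INO80 siRNA (SD, n = 3 each). Its groups did not overlap, and on the log2 scale it was -0.30 from control (standard error 0.0632, adjusted p = 0.0566, or 0.000269 with the replicate block, edgeR). TTF1, which stops Pol I at the end of the ribosomal DNA unit, was at 28.2 ± 0.683 and 34.5 ± 1.24 CPM, with a log2 fold change of 0.29 (adjusted p = 0.0874, or 0.000891 with the block, edgeR). The median log2 fold change of the 12 genes was 0.06.

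Among 22 genes of Pol III, the polymerase of 5S ribosomal RNA and transfer RNA, edgeR called none, 5 had an unadjusted p under 0.05, DESeq2 called 1 and the block called 8, 5 lower and 3 higher. The largest differences were those of POLR3G, at 12.5 ± 0.830 and 16.2 ± 0.647 CPM (SD, n = 3 each), and BRF1, a TFIIIB subunit, at 34.4 ± 3.23 and 43.0 ± 1.06 CPM. Their log2 fold changes were 0.37 and 0.32 (adjusted p = 0.108 and 0.102, or 0.00333 and 0.000333 with the block, edgeR). Of 7 subunits that only Pol II uses, POLR2C alone was called.
POLR2C was lower after INO80 siRNA, with means of 61.6 ± 2.66 against 79.9 ± 6.29 CPM (SD, n = 3 each). The difference on the log2 scale was -0.38 with a standard error of 0.0739 (adjusted p = 0.0476, edgeR). The call was lost with scaling by the total count and without any single library other than control replicate 1. POLR2A, the catalytic subunit of Pol II, had a log2 fold change of 0.23 (adjusted p = 0.116, or 8.6e-05 with the block, edgeR).

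Of 46 genes that process the Pol I transcript, edgeR called none, 8 had an unadjusted p under 0.05, DESeq2 called 1 and the block called 13, 5 lower and 8 higher. The lowest log2 fold change was -0.26, the median 0.03 and the highest 0.36. The highest belonged to UTP14A, a factor of the small subunit precursor, at 40.9 ± 2.36 and 52.6 ± 3.29 CPM (SD, n = 3 each; adjusted p = 0.0572, or 2.31e-05 with the block, edgeR). BOP1, which acts on the large subunit precursor, had a log2 fold change of 0.33 (adjusted p = 0.243, or 0.0128 with the block, edgeR). Of 16 factors of ribosomal DNA chromatin and its regulation, edgeR and DESeq2 called none, 1 had an unadjusted p under 0.05 and the block called 3, 1 lower and 2 higher. ERCC6, a chromatin remodeler known from transcription-coupled repair, had the largest difference, with a log2 fold change of 0.38 (adjusted p = 0.312, or 0.00532 with the block, edgeR). EHMT2, a histone H3 methyltransferase, was second at 0.20 (adjusted p = 0.274, or 0.0027 with the block, edgeR).
Of 18 kinases and partners known to act on Pol I initiation, edgeR and DESeq2 called none, 6 had an unadjusted p under 0.05 and the block called 8, 5 lower and 3 higher. CDK7, the kinase of TFIIH, had a log2 fold change of 0.31 and RPS6KA1, a kinase that modifies RRN3, one of -0.28 (adjusted p = 0.117 and 0.281, or 0.00112 and 7.83e-05 with the block, edgeR). Over all genes, 16.4% had an unadjusted p under 0.05, and DESeq2 called 5.28% of those it tested. Of all tested genes edgeR called 1.75%, or 24.8% with the block. The share called with the block ran from 18.8% to 44.4% over the 6 lists, and nothing is read from these shares. The difference of RRN3 was larger than that of any gene in these 6 lists. RRN3 was known beforehand to differ, so nothing is read from this comparison.

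**Figure D4:**
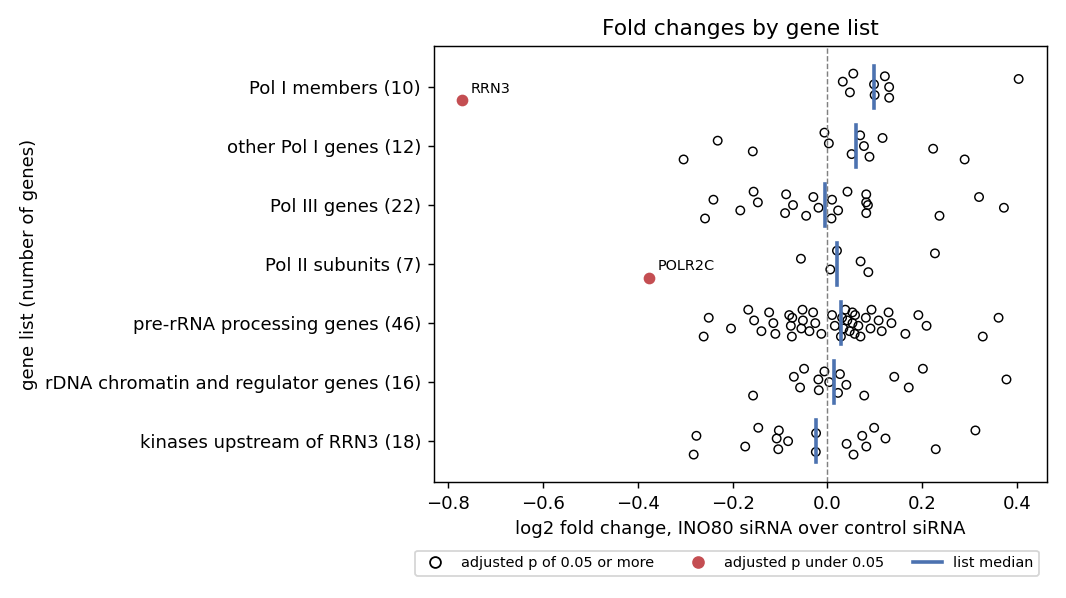
Log2 fold changes of the 10 members and of 6 gene lists, 1 symbol per gene; filled symbols have an adjusted p under 0.05 and blue bars are list medians. RRN3, known beforehand to differ, lies at -0.77, outside the range of every other list. POLR2C at -0.38 is the only filled symbol among the listed genes that are not members.

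The genes most like RRN3 over the 6 libraries were GNA12, RP11-149I23.3, UST, WARS2 and CASD1. Likeness was the root mean square difference in log2 CPM, with each gene centred on its control mean, and was 0.0548, 0.061, 0.0663, 0.0688 and 0.0751. GNA12, a G protein alpha subunit, was at 211, 182 and 188 CPM in the control libraries against 127, 110.1 and 109.8 CPM in the others. The log2 fold changes of these 5 genes, which the measure itself fixes, lay between -0.79 and -0.68, and none of the 5 is in the lists above.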

How the data were processed

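RNA-seq of 6 HK-2 libraries, 3 per group, was analysed. The authors deposited raw counts per gene and FPKM values, which scale the count by exonic length and by the total of counted reads. The submitters' processing notes list HISAT2 2.0.1, HTSeq and hg19, whereas the methods name ELAND and hg38. The gene coordinates in the table are those of GRCh37. Poly-A mRNA was sequenced with a directional kit, and the strand setting of the counting is not given in the sources used here.

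Counts were compared in R 4.3.3 with the quasi-likelihood test of edgeR 4.0.16, with TMM scaling, the filterByExpr filter and treatment as the only term. The Benjamini-Hochberg adjustment ran over all 15343 genes tested, with a limit of 0.05. Standard errors are the log2 fold change divided by the square root of F. The alternatives were DESeq2 1.42.0, other scalings, no filter, the replicate block and fits without single libraries or without replicate 1. The deviations from the group means correlated at 0.581, 0.365 and 0.36 across genes between libraries of the same replicate number. Replicates 2 and 3 correlated across the groups at 0.152 and 0.129, and replicate 1 with another number at -0.397 to -0.361. Much of the pattern thus sets replicate 1 apart. The methods name no test for the RNA-seq and do not say whether the replicate numbers are pairs. Treatment alone was fitted, and the replicate block is an alternative. The choice matters, since treatment alone called 268 genes and the block 3798. Counts called without the block leave any pairing out.

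The members and lists were chosen with earlier results of these data known. Named are all members, the RRN3 copies, genes that overlap a member, in each list those called and the 2 with the largest differences, and the 5 genes most like RRN3. Transcripts from GENCODE v44 were matched by gene ID, or for RRN3P3 also by symbol, and aligned with BLAST+ 2.17.0. Intervals from counts would cover counting error only, and none is given.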

Additional observations from a re-analysis of the deposited data

How the results depend on the processing

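The log2 fold change of RRN3, given as a description, lay between -0.82 and -0.74 in the 12 alternative fits of its own counts. It was -0.59 with the counts of RRN3P1, RRN3P2 and RRN3P3 summed into it, the largest shift. INO80 lay between -1.95 and -1.83 without single libraries. Called genes numbered 708 without the count filter, 3798 with the replicate block, 637 in DESeq2, 528 without replicate 1 and 18 to 146 without single libraries. Called members numbered 2 (RRN3 and TAF1C) without the filter and in DESeq2, 3 with the replicate block, and 1 in each fit without a single library. Over all genes DESeq2 called 5.28% of those it tested and the block 24.8%, and the share without the filter was not computed. RRN3 was known beforehand, so nothing is read from these counts of members. The replicate block called 5 other Pol I genes, 8 Pol III genes, 2 Pol II subunits, 13 processing genes, 3 chromatin genes and 8 kinases and partners. The filter's removal gave 1 Pol III gene and 1 processing gene, and DESeq2 gave 1 each of the other Pol I, Pol III and processing genes. Called other Pol I genes numbered 1 without replicate 1 and 0 to 1 without single libraries. Called Pol II subunits numbered 0 with the total count and 0 to 1 without single libraries. The log2 fold change of POLR1A was -0.0233 without replicate 1 of both groups, and up to 0.0525 otherwise. That of POLR1E was -0.00992 without replicate 1 of both groups, and ran from -0.0352 (without control replicate 1) to 0.0903 without single libraries. Without INO80 siRNA replicate 2, RNA28S5 was at -0.0479 and RNA18S5 at -0.0805, and without INO80 siRNA replicate 1 they were at 0.411 and 0.434. The cause of these shifts was not tested. The order of the members' levels had 0 changes with TMM-scaled sizes. This scaling acts alike on all genes of a library, so it could hardly change that order, and other gene lengths were not tried.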

Other observations

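A sequence of 7 bases, AACGGCA, had come up in earlier work on these data as one carried by genes that were lower under INO80 siRNA, so its presence in a lower gene is no independent evidence. It was searched on the transcript strand of the GENCODE v44 transcript of each member. RRN3 held it once, at bases 1048 to 1054, in the coding sequence, and the other 9 members did not hold it. The 30 bases around it are printed with the match in capitals.
RRN3: gtaaggttgatAACGGCAaaacaaaggatc
The stretch lies in a part of RRN3, between bases 898 and 1163, to which the GENCODE v44 transcripts of RRN3P1, RRN3P2 and RRN3P3 did not align. RRN3P4 aligned across it, at 82.2% identity over bases 51 to 1970. None of the 6 pseudogene transcripts held the 7 bases, and the copies in the genome were not searched. Of 12670 coding transcripts of tested genes, 1099 (8.67%) held the sequence and 831 (6.56%) held it in the coding sequence. The match describes the letters of the transcript, and its part in the level of RRN3 was not tested.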
